A study of Mus musculus with 9 samples.

Results

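Platelet-derived growth factor (PDGF) genes were followed in mouse intrahepatic cholangiocarcinoma (iCCA) cells with intact *Vcam1* and in *Vcam1* knockout clones. The 6 genes were the receptors *Pdgfra* and *Pdgfrb* and the ligands *Pdgfa*, *Pdgfb*, *Pdgfc* and *Pdgfd*, taken by symbol from a table of 55276 genes. All 6 passed the filter on low counts, as did 17672 genes in all. RNA-seq libraries came from PPTR cells, a tumour line grown in culture from liver cancer organoids of mice with *Prom1*-driven CreERT2, floxed alleles and a *Rosa* ZsGreen reporter. Every group carried these alleles. The controls, labelled WT and called *Vcam1* ctrl below, kept *Vcam1*, while KO1 and KO2 had each been grown from a single cell after Cas9 cutting in exon 2 of *Vcam1*. The labels thus gave 3 ctrl, 3 KO1 and 3 KO2 libraries, and each knockout is 1 clone, so that the effect of the knockout and the history of a clone cannot be told apart.

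PDGF ligands are secreted as dimers that bring a pair of receptor chains together, after which the receptor tyrosine kinases phosphorylate each other and pass the signal to PI3 kinase, phospholipase C gamma, SHP2 and the RAS and ERK cascade. PDGF-A and PDGF-B leave the cell in active form after cleavage by furin-like convertases, whereas PDGF-C and PDGF-D are secreted with an inhibitory CUB domain that extracellular proteases remove. PDGFRA is bound by PDGF-A, PDGF-B and PDGF-C, and PDGFRB by PDGF-B and PDGF-D. In liver, PDGFRB is best known from hepatic stellate cells and portal fibroblasts, and in cholangiocarcinoma PDGF-D is known as a signal from tumour cells to fibroblasts.

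Total counts lay between 53415907 and 125223073 per library. *Vcam1* mRNA was lower in the knockouts, at 103 ± 16.9 CPM (SD, n = 6 libraries of 2 clones). CPM are counts scaled to library size, with TMM factors. In ctrl it was at 266 ± 56.5 CPM (SD, n = 3, adjusted p = 0.00021 for the difference, edgeR quasi-likelihood). The counts were per gene, so they did not show whether the edited exon was read. The authors reported that both clones had lost *Vcam1* expression by qRT-PCR and by flow cytometry. KO1 replicate 3 stood apart from the other KO1 libraries: its median over 12 proliferation genes was 4.04 on the log2 CPM scale, against 6.38 and 6.65 in KO1 replicates 1 and 2. For the PDGF genes, values without that library are given where it changed a call or moved a called value by over 1.5 times. This was not done for every other gene named below. Of the biliary markers, *Krt19* was at 2129 to 2406 CPM in ctrl and at no more than 0.226 CPM in the clones, while *Sox9* and *Spp1* were present in all 9 libraries.

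The members lie apart in the genome (GRCm38, GENCODE vM21). *Pdgfra* is at chr5:75152292-75198215 on the plus strand and *Pdgfa* at chr5:138976014-138997370 on the minus strand. *Pdgfb* is at chr15:79995874-80014977 (minus), *Pdgfc* at chr3:81036416-81214040 (plus), *Pdgfd* at chr9:6168584-6378850 (plus), and *Pdgfrb* on a chromosome apart from these. RefSeq promoter windows (GRCm38.p6) matched 4 of the 6 members, all but *Pdgfb* and *Pdgfrb*. The 250 bases before the start are shown for the receptor that rose (*Pdgfra*), the ligand that fell (*Pdgfd*), the ligand that rose in KO2 (*Pdgfa*, the upstream one of its 2 starts) and the ligand that passed no test (*Pdgfc*). Capitals mark matches, on either strand, to the AP-1, GC box, E-box, TEAD, TATA box and CArG box motifs, spelled out beside the matches. None of the marked matches overlapped another.
Pdgfra, chr5:75152001-75152250, plus strand: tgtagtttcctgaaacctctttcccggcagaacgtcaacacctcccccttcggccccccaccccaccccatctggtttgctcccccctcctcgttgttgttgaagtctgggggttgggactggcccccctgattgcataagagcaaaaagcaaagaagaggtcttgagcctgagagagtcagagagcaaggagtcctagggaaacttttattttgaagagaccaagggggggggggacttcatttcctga
Pdgfd, chr9:6168236-6168485, plus strand: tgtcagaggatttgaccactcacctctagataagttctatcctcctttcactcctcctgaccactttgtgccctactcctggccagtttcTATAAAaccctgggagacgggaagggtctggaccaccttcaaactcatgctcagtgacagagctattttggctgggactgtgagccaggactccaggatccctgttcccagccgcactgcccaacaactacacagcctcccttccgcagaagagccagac
Pdgfa, chr5:138994945-138995194, minus strand: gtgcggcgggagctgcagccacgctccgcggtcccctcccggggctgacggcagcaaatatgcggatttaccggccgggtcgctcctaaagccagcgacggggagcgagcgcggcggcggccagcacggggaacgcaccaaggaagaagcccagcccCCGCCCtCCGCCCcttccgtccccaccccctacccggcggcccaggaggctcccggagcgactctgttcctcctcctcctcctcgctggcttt
Pdgfc, chr3:81036166-81036415, plus strand: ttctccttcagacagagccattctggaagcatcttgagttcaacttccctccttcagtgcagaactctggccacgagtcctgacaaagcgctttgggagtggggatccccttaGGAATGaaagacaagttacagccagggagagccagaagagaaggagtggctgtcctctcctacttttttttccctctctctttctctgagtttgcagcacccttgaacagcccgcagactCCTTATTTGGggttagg
The *Pdgfra* window held 0 matches and had a GC content of 54.4%, near the median of 52.4% over 32851 RefSeq windows. The *Pdgfd* window held a TATA box, searched as TATAAA, 160 bases before the start (found in 12.4% of all windows), and the *Pdgfc* window a TEAD motif, searched as GGAATG, 137 bases before it (12.6% of windows) and a CArG box 17 bases before it (1.47% of windows). The *Pdgfa* window was rich in GC (72.4%), with 2 GC boxes, searched as GGGCGG, at 93 and 86 bases before the start, and the window at its other start held 1 at 60 bases. GC boxes were present in 32.7% of all windows. The AP-1 motif TGANTCA (6.75% of windows) had no match in the 5 windows of members. The same was true of CAGGTG, the E-box of the Snail and Zeb kind (17.2% of windows). A match is a description of the letters and not a test of binding.

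Both receptors rose in the knockouts. *Pdgfrb*, the receptor for PDGF-B and PDGF-D, was at 27.7, 39.7 and 20.9 CPM in ctrl replicates 1 to 3. It was at 592, 566 and 821 CPM in KO1 and at 406, 410 and 341 CPM in KO2. Every knockout library lay far above every ctrl library, and the KO1 libraries lay above those of KO2. The increase was 17.8-fold over both clones (log2 fold change 4.15 ± 0.38 SE, adjusted p = 3e-05, edgeR), 22.4-fold in KO1 (4.49 ± 0.27, adjusted p = 1.1e-06) and 13.1-fold in KO2 (3.71 ± 0.26, adjusted p = 3.5e-06). The contrasts of KO1 and of KO2 share the ctrl libraries. By log2 fold change over both clones, *Pdgfrb* ranked 540 from the top of the 17672 tested genes. Between the clones, KO1 was 1.71-fold higher (log2 0.77 ± 0.23, adjusted p = 0.028), a call that was lost without KO1 replicate 3 (0.59, adjusted p = 0.082) and without each KO2 library in turn (adjusted p from 0.062 to 0.091).

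*Pdgfra*, the receptor that also takes PDGF-A and PDGF-C, rose less steeply. Its levels were 28.9, 26.5 and 15.7 CPM in ctrl, 94.2, 71.3 and 182 CPM in KO1, and 73.1, 74.8 and 53 CPM in KO2. Knockout and ctrl libraries did not overlap, whereas the clones did. The increase was 3.85-fold over both clones (log2 1.95 ± 0.41 SE, adjusted p = 0.0043, edgeR), 4.88-fold in KO1 (2.29 ± 0.36, adjusted p = 0.00046) and 2.82-fold in KO2 (1.5 ± 0.35, adjusted p = 0.0057). The highest value was that of KO1 replicate 3, and without it the KO1 difference was 1.81 on the log2 scale (adjusted p = 0.00037). KO1 and KO2 were not shown to differ in *Pdgfra* (log2 0.79 for KO1 over KO2, 95% interval 0.01 to 1.57, adjusted p = 0.099), although without KO1 replicate 2 the difference passed (1.04, adjusted p = 0.038).

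**Figure D1:**
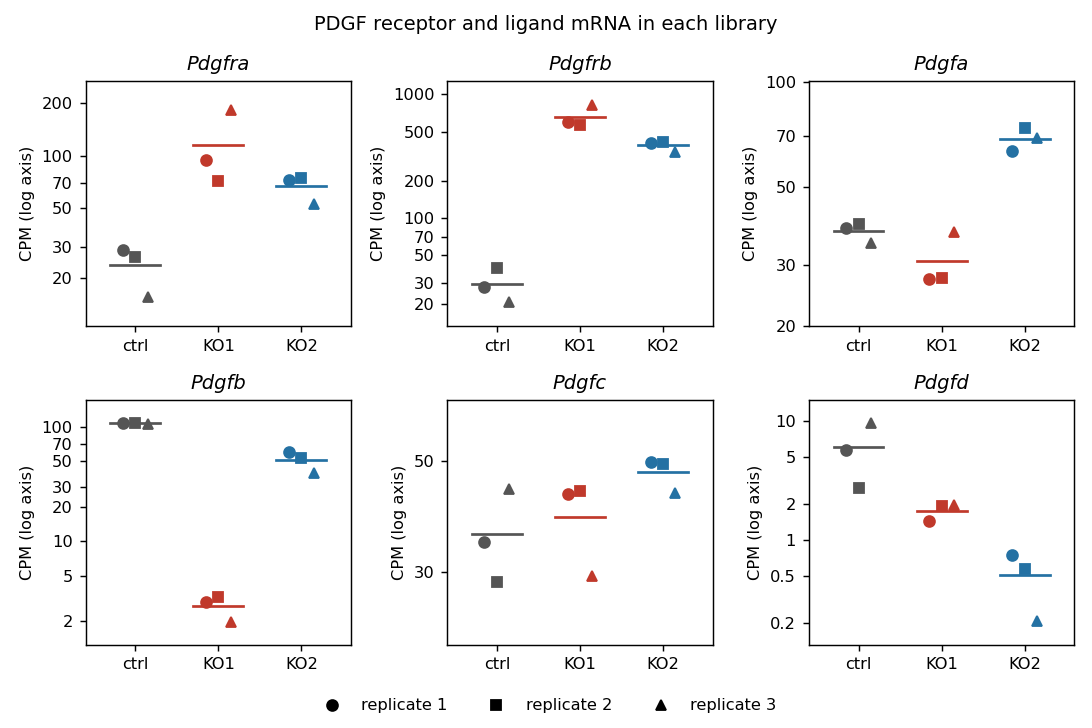
CPM (log axis) of the 6 PDGF genes in each library of ctrl, KO1 and KO2; points are single libraries, lines are group means, and replicate numbers do not pair libraries across groups. Both receptors are above ctrl in all 6 knockout libraries, with *Pdgfrb* at 341 to 821 CPM against 20.9 to 39.7 CPM, while *Pdgfb* and *Pdgfd* are below ctrl and *Pdgfa* is above ctrl in KO2.

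Among the ligands, *Pdgfb* set the clones apart most widely. PDGF-B is the ligand that binds both receptors. Ctrl libraries held 107, 109 and 106 CPM, KO1 2.95, 3.22 and 1.98 CPM, and KO2 60.3, 53.8 and 39.3 CPM. None of the groups overlapped, in the order ctrl, KO2, KO1. *Pdgfb* fell 39.3-fold in KO1 (log2 fold change -5.30 ± 0.23 SE, adjusted p = 1.9e-07, edgeR) and 2.10-fold in KO2 (-1.07 ± 0.19, adjusted p = 0.0013). KO1 was 18.7-fold below KO2 (-4.23 ± 0.22, adjusted p = 3.1e-06). With both clones in a single group, the difference from ctrl was -2.0 ± 1.01 and did not pass (adjusted p = 0.14), although every knockout library, at 1.98 to 60.3 CPM, was below every ctrl library. That call depended on the fit: limma-voom gave -3.28 (adjusted p = 0.022), and the mean of the clone contrasts gave -3.18 (adjusted p = 2.9e-07).

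*Pdgfd* fell in both clones. It codes for PDGF-D, a ligand of PDGFRB, and was the lowest of the 6 genes per transcript length in every group. Its levels were 5.63, 2.71 and 9.57 CPM in ctrl, 1.42, 1.91 and 1.95 CPM in KO1, and 0.737, 0.566 and 0.207 CPM in KO2, where the counts behind the values were 43, 40 and 14. The groups did not overlap, although the ctrl libraries spread over 2.71 to 9.57 CPM. The fall was 5.27-fold over both clones (log2 -2.40 ± 0.64 SE, adjusted p = 0.014, edgeR), 3.39-fold in KO1 (-1.76 ± 0.50, adjusted p = 0.013) and 11.9-fold in KO2 (-3.57 ± 0.55, adjusted p = 0.0005). Without ctrl replicate 3, its highest library, *Pdgfd* no longer passed over both clones (-1.89, adjusted p = 0.072) or in KO1 (-1.26, adjusted p = 0.053). KO1 was 3.51-fold above KO2 (1.81 ± 0.53, adjusted p = 0.024), and this was lost without KO1 replicate 2, KO2 replicate 2 or KO2 replicate 3 (adjusted p = 0.053, 0.062 and 0.071).

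*Pdgfa*, whose product binds PDGFRA, went up in KO2 and was not shown to change in KO1. The libraries held 38.3, 39.3 and 34.6 CPM in ctrl, 27.3, 27.4 and 37.2 CPM in KO1, and 63.7, 73.9 and 69.2 CPM in KO2. All KO2 libraries were above all others, and KO1 overlapped ctrl through KO1 replicate 3. KO2 was 1.84-fold above ctrl (log2 0.88 ± 0.14 SE, adjusted p = 0.00056, edgeR) and KO1 2.25-fold below KO2 (-1.17 ± 0.14, adjusted p = 0.00028). KO1 against ctrl gave -0.29 (95% interval -0.60 to 0.02, adjusted p = 0.099), which passed without KO1 replicate 3 (-0.45, adjusted p = 0.0072). Over both clones the difference was 0.41 (95% interval -0.38 to 1.21, adjusted p = 0.37).

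*Pdgfc*, the other ligand of PDGFRA, passed no test. It was at 34.4, 28.6 and 43.9 CPM in ctrl, 42.9, 43.5 and 29.4 CPM in KO1, and 49.8, 49.5 and 43.2 CPM in KO2. The groups overlapped in every comparison. The difference from ctrl was 0.27 on the log2 scale over both clones (95% interval -0.16 to 0.70, adjusted p = 0.28, edgeR), 0.12 in KO1 (-0.31 to 0.54, adjusted p = 0.63) and 0.41 in KO2 (-0.01 to 0.84, adjusted p = 0.097). The KO2 difference passed without ctrl replicate 3 (0.59, adjusted p = 0.034) and without KO1 replicate 3 (0.42, adjusted p = 0.042). Between the clones it was -0.30 (-0.73 to 0.13, adjusted p = 0.24).

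**Figure D2:**
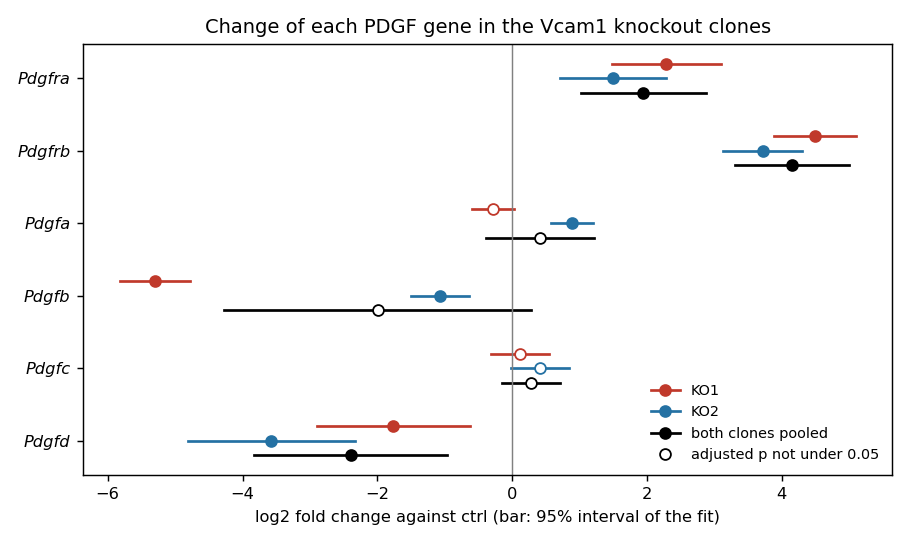
Log2 fold change of each PDGF gene against ctrl in KO1, in KO2 and over both clones, with the 95% interval of the edgeR fit; open circles did not pass an adjusted p of 0.05. The intervals of both receptors lie above 0 in every comparison, those of *Pdgfd* lie below 0, *Pdgfb* is at -5.30 in KO1 and -1.07 in KO2, and *Pdgfa* is at 0.88 in KO2 and -0.29 in KO1.

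Over both clones against ctrl, 2 members passed as higher (*Pdgfra* and *Pdgfrb*) and 1 as lower (*Pdgfd*), where 43% of all tested genes passed (21.7% higher, 21.2% lower). Of the 6 members, 4 did not overlap between the groups, namely both receptors, *Pdgfb* and *Pdgfd*, against 44.2% of all genes. In KO1 the 2 receptors were higher and *Pdgfb* and *Pdgfd* lower, against 59.9% of all genes called (29.9% higher, 30% lower). In KO2 these 4 genes passed in the same directions and *Pdgfa* was higher as well, against 51.4% of all genes (25.3% higher, 26.1% lower). Members that did not overlap ctrl numbered 4 in KO1 (66% of all genes) and 5 in KO2 (62.1%). Between the clones 4 members passed, with *Pdgfd* and *Pdgfrb* higher and *Pdgfa* and *Pdgfb* lower in KO1, against 38.7% of all genes (20.2% higher, 18.5% lower), and the same 4 did not overlap (54.9%). By the size of the change, 7.92% of tested genes differed by more than *Pdgfrb* over both clones, 19.6% by more than *Pdgfra*, 15.6% by more than *Pdgfd* and 76.4% by more than *Pdgfc*. In the difference between the clones, 3.01% of genes exceeded *Pdgfb*.

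Per transcript length, the balance of receptor and ligand mRNA shifted towards the receptors. CPM were divided by the median length of each gene's coding transcripts in kb, and for *Pdgfb* this length was short, 652 nucleotides against 2944 for its longest coding transcript, so both are given. Summed over the 2 receptors, the level was 13.7 ± 3.86 CPM per kb in ctrl, 162 ± 46.1 in KO1 and 94.6 ± 11.3 in KO2 (SD, n = 3 each). Summed over the 4 ligands, it was 203 ± 0.625 in ctrl, 36.8 ± 0.825 in KO1 and 139.5 ± 16.8 in KO2. Receptor mRNA was therefore 0.0675 ± 0.0189 times the ligand mRNA in ctrl, 4.39 ± 1.16 times in KO1 and 0.678 ± 0.0117 times in KO2, with no overlap between groups. The ratio of *Pdgfrb* to *Pdgfra* per kb was 0.670 ± 0.147 in ctrl, 3.32 ± 0.907 in KO1 and 3.10 ± 0.284 in KO2, so that the clones overlapped and ctrl lay below both. With the longest coding transcripts, receptor over ligand mRNA came to 0.0899 to 0.172 in ctrl, 4.19 to 6.43 in KO1 and 1.19 to 1.3 in KO2, and *Pdgfrb* over *Pdgfra* to 1.21 to 1.89 in ctrl, which moved KO2 and ctrl, respectively, across a ratio of 1 but kept the order of the groups. The ratio of *Pdgfb* to *Pdgfrb*, a ligand and its receptor, was 32.4 ± 9.68 in ctrl, 0.0363 ± 0.0144 in KO1 and 1.09 ± 0.139 in KO2. With the longest coding transcripts it was 5.05 to 9.35 in ctrl, 0.00444 to 0.0105 in KO1 and 0.212 to 0.273 in KO2, which put KO2 below 1.

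The order of the levels per kb also differed by group. In ctrl it was *Pdgfb* (165 ± 2.40 CPM per kb), *Pdgfa* (25.7 ± 1.68), *Pdgfc* (10.1 ± 2.19), *Pdgfra* (8.25 ± 2.46), *Pdgfrb* (5.43 ± 1.76) and *Pdgfd* (2.09 ± 1.20). Neighbours from *Pdgfc* to *Pdgfrb* overlapped. In KO1 it was *Pdgfrb* (122 ± 25.9), *Pdgfra* (40.3 ± 20.3), *Pdgfa* (21.1 ± 3.89), *Pdgfc* (11 ± 2.26), *Pdgfb* (4.17 ± 1.0) and *Pdgfd* (0.615 ± 0.102). There *Pdgfra* and *Pdgfa* overlapped. In KO2 *Pdgfb* (78.4 ± 16.5) and *Pdgfrb* (71.3 ± 7.13) overlapped at the top, followed by *Pdgfa* (47.5 ± 3.50), *Pdgfra* (23.3 ± 4.22), *Pdgfc* (13.5 ± 1.05) and *Pdgfd* (0.176 ± 0.0945). With the longest coding transcript as the length, *Pdgfb* came to 36.5 CPM per kb in ctrl and 17.4 in KO2, which left it first in ctrl but put it below *Pdgfrb* (71.2) and *Pdgfa* (33.5) in KO2.

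The ligand with the largest share of the summed ligand level was *Pdgfb* in ctrl and *Pdgfa* in KO1. *Pdgfb* made up 81.3 ± 0.933% in ctrl, 11.4 ± 2.88% in KO1 and 55.8 ± 5.62% in KO2, and *Pdgfa* 12.7 ± 0.794%, 57.1 ± 9.38% and 34.4 ± 5.25%. *Pdgfc* made up 5.00 ± 1.10% in ctrl, 29.8 ± 6.64% in KO1 and 9.70 ± 0.447% in KO2, although its own level passed no test. With the median length *Pdgfd* stayed at no more than 1.81% in every library. In ctrl replicate 3 it reached 4.48% with the longest coding transcript and 4.91% with the union of exons. With the longest coding transcript, *Pdgfb* held 54.8% in ctrl, 3.39% in KO1 and 26.8% in KO2, so it led the ligands in ctrl under both lengths, and in KO2 under the median length only. In KO1 *Pdgfa* led with both of these lengths, but *Pdgfc* (47.9%) led *Pdgfa* (45.8%) when the union of exons was used.

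**Figure D3:**
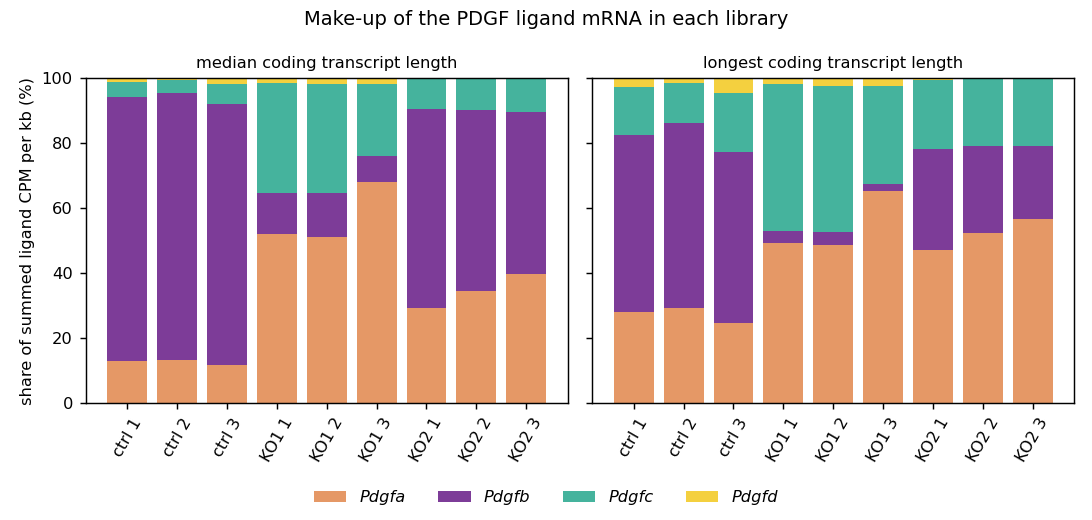
Share (%) of each ligand in the summed ligand CPM per kb of each library, with the median coding transcript length (left) and the longest (right). *Pdgfb* fills most of each ctrl bar under both lengths and shrinks to 8.07 to 13.4% in KO1 under the median length, where *Pdgfa* leads.

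Genes whose products process or bind the ligands moved both ways. Of 13 listed, 10 were tested over both clones against ctrl, and 5 rose and 2 fell (median log2 fold change 1.32, against 0.07 over all genes), where 21.7% of all tested genes were higher and 21.2% lower. *Pdgfrl*, which codes for a secreted protein resembling the ligand-binding part of the receptors, was at 3.32, 3.36 and 1.58 CPM in ctrl, 79.8, 53.1 and 129 CPM in KO1, and 17.3, 18.1 and 11.8 CPM in KO2 (log2 4.22, adjusted p = 0.0053, edgeR). *Sparc*, a matrix glycoprotein that binds PDGF-B, rose by 3.54 (adjusted p = 7.1e-06), *Thbs1* (thrombospondin 1) by 2.19 (adjusted p = 0.021), the co-receptor *Nrp1* by 2.07 (adjusted p = 2.6e-05) and the endocytic receptor *Lrp1* by 2.07 (adjusted p = 0.00088). *Thbs1* did not pass without ctrl replicate 1 (adjusted p = 0.054) or ctrl replicate 2 (adjusted p = 0.061). The genes that fell were the convertase *Pcsk6* (log2 -1.36, adjusted p = 0.024) and *St14* (-1.55, adjusted p = 0.024), the latter under 0.5 CPM in every library. *Furin*, the convertase of PDGF-A and PDGF-B, was at 171 to 217 CPM in all libraries.

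*Plat* and *Plau*, proteases of the CUB-domain ligands that were named after their values were seen, differed between the clones. *Plat*, which activates PDGF-C, was at 238, 259 and 283 CPM in ctrl, 55.0, 63.4 and 39.1 CPM in KO1, and 202, 211 and 225 CPM in KO2. It fell in KO1 (log2 -2.31, adjusted p = 4.3e-06, edgeR), whereas KO2 against ctrl gave -0.29 (adjusted p = 0.18). *Plau*, which activates PDGF-D, was at 24.0, 24.0 and 24.8 CPM in ctrl, 14.7, 23.4 and 8.28 CPM in KO1, and 59.4, 57.5 and 52.2 CPM in KO2. It rose in KO2 (1.22, adjusted p = 0.0068), where *Pdgfd* itself was lowest, and KO1 against ctrl gave -0.65 (adjusted p = 0.083). KO1 against KO2 gave -2.02 for *Plat* (adjusted p = 4.3e-05) and -1.86 for *Plau* (adjusted p = 0.0014). The protease gene *St14*, on the same list, went the other way (1.54, adjusted p = 0.0084, edgeR), at no more than 0.481 CPM in any library. *Plg*, also listed, had at most 2 counts in any library.

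Adaptors and effectors that dock on active receptors moved both ways. Of 41 tested, 13 rose and 12 fell over both clones (median log2 fold change 0.16, against 0.07 over all genes), and 16 did not pass, where 43% of all tested genes passed. The SH2 adaptor *Grb7* fell from 62.3, 76.9 and 79.0 CPM in ctrl to at most 0.0835 CPM in KO1 and 0.565 CPM in KO2 (log2 -7.97, adjusted p = 3.7e-05, edgeR). *Grb10* was at 167, 247 and 170 CPM in ctrl and 10.8, 10.3 and 5.6 CPM in KO1, with 0, 1 and 2 counts in KO2, where it was at least 4229-fold lower than in ctrl against a floor of 3 counts per library. *Shb* fell by 2.6 (adjusted p = 0.00018), while phospholipase *Plcg2* rose by 3.37 (adjusted p = 5.6e-05), from 6.22 to 9.19 CPM in ctrl to 51.4 to 111 CPM in the clones.

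Brakes on the receptors and genes induced by growth factors were counted in the same way over both clones. In both lists the share that passed was under the 43% of all tested genes (21.7% higher, 21.2% lower). Of the 15 brakes reported here, 0 rose and 4 fell (median log2 fold change -0.19, against 0.07 over all genes), with 1 higher and 5 lower at an unadjusted p under 0.05, and DESeq2 called 0 higher and 5 lower. The ERK phosphatase *Dusp6* was at 499, 507 and 643 CPM in ctrl, 27.5, 32.2 and 82.1 CPM in KO1, and 43.7, 43.9 and 61.1 CPM in KO2 (log2 -3.50, adjusted p = 2.8e-05, edgeR), and the Sprouty family gene *Spry4* fell by 2.07 (adjusted p = 0.0019). Among 24 immediate-early and induced genes, 0 rose and 5 fell (median -0.67), with 0 higher and 6 lower at an unadjusted p under 0.05, and DESeq2 likewise called 0 higher. *Ptgs2* (cyclooxygenase 2) fell by 4.41 (adjusted p = 8.2e-05) and *Hbegf*, a ligand of the EGF receptor, by 2.33 (adjusted p = 0.008). *Myc* (-1.67, adjusted p = 0.031) and *Ier3* (-1.60, adjusted p = 0.024) also passed, but *Myc* did not pass without ctrl replicate 1, 2 or 3, KO1 replicate 2 or 3 or KO2 replicate 3 (adjusted p from 0.05 to 0.086), nor *Ier3* without ctrl replicate 1 (adjusted p = 0.091) or 3 (adjusted p = 0.073). The fifth gene was *Klf4* (-2.44, adjusted p = 0.01), named after its value was seen. By clone against ctrl, 2 brakes rose and 7 fell in KO1, and 0 rose and 4 fell in KO2. Of the induced genes, 2 rose and 7 fell in KO1, and 1 rose and 9 fell in KO2. Of all tested genes, 59.9% passed in KO1 and 51.4% in KO2. The induced genes varied widely within groups, with sums of 4170 to 10703 CPM in ctrl, 2667 to 9582 in KO1 and 2071 to 5785 in KO2.

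**Figure D4:**
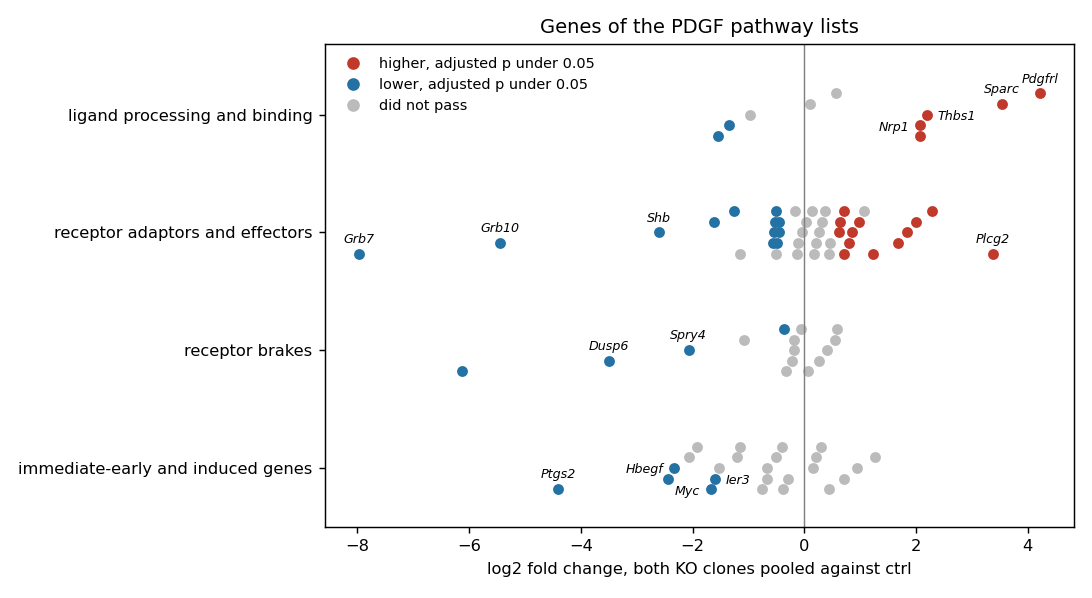
Log2 fold change over both clones against ctrl of each tested gene in 4 lists of the PDGF pathway; red and blue points passed an adjusted p of 0.05 (edgeR) and grey points did not, and heights within a list only separate points. Ligand-binding genes such as *Pdgfrl* (4.22) and *Sparc* (3.54) lie to the right, adaptors spread to both sides, and the induced genes that passed all lie to the left.

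Markers of cells that normally carry PDGF receptors were measured beside them. In bulk RNA, a different number of cells of a type and a different amount of RNA per cell cannot be told apart. Of 12 stellate cell and pericyte markers, 8 were tested, of which 2 rose (*Acta2*, *Rgs5*) and 2 fell (*Cspg4*, *Ngfr*), beside 21.7% higher and 21.2% lower among all tested genes. Their summed level was 38.4 to 56.8 CPM in ctrl, 58.7 to 106 in KO1 and 87.1 to 98.5 in KO2. *Notch3* made up most of it in KO2, at 66.3 to 79.8 CPM, against 15.5 to 22.0 in ctrl and 18.5 to 23.1 in KO1. *Acta2* was at 0.190 to 3.06 CPM in ctrl, 19.2 to 67.1 in KO1 and 6.07 to 9.95 in KO2. The stellate markers *Lrat* and *Hand2* had at most 1 and 2 counts in any library. Of 10 fibroblast markers, 8 were tested, of which 4 rose and 1 fell over both clones, beside the same shares of all tested genes. Their summed level went from 578 to 1027 CPM in ctrl to 9761 to 12023 in KO1 and 5809 to 7038 in KO2. *Col1a1* made up most of it in the clones, at 55.0 to 136 CPM in ctrl, 7780 to 9204 in KO1 and 4199 to 5008 in KO2, whereas *Lum* was at 0 in ctrl and *Thy1* at no more than 0.287 CPM in any library. *Pdgfra* and *Pdgfrb* thus rose in the same libraries as *Col1a1* and *Col3a1*. *Col3a1* was at 18.4 to 50.4 CPM in ctrl, 1138 to 2361 in KO1 and 318 to 359 in KO2. *Col1a2* was at 259 to 570 CPM in ctrl and overlapped it in KO1 (446 to 839), but lay above it in KO2 (1197 to 1597). *Col15a1* fell from 187 to 261 CPM in ctrl to at most 2.29 CPM in the clones. *Dcn* was at 58.3 to 105 CPM in ctrl, 2.16 to 8.35 in KO1 and 51.7 to 113 in KO2. The part of a change in cell types in the rise of the receptors was not tested. Endothelial markers summed to at most 5.21 CPM and haematopoietic markers to at most 20.9 CPM in any library, with *Ptprc* at no more than 0.443 CPM. The biliary markers reported here summed to 4461 to 5727 CPM in ctrl, 10545 to 10974 in KO1 and 7566 to 11020 in KO2, with 1 of 6 tested higher and 4 lower. The higher sum was that of *Spp1* (osteopontin), at 2066 to 3133 CPM in ctrl, 10166 to 10794 in KO1 and 7459 to 10797 in KO2, while *Krt19*, *Krt7*, *Epcam* and *Cftr* fell. All 6 tested hepatocyte markers fell.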

How the data were processed

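Polyadenylated RNA of *Vcam1* ctrl, KO1 and KO2 PPTR cells (3 libraries each, from 3 passages) was made by the authors into strand-specific libraries and read from both ends. The authors pseudoaligned reads with kallisto 0.46.1 to GENCODE vM24 transcripts (GRCm38, mm10) and deposited estimated counts per gene, without normalization. All values were whole numbers, and the step from transcripts to genes is not given in the sources used here.

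Groups were taken from the labels. Counts were filtered with filterByExpr, TMM-scaled and tested with edgeR 4.0.16 (quasi-likelihood, Benjamini-Hochberg over 17672 genes, adjusted p under 0.05) in R 4.3.3. Both clones against ctrl were fitted as 2 groups, with each library as a unit and no term for the clone. Single clones were fitted as 3 groups over 9 libraries. SE is the log2 fold change over the root of F, and intervals are 95%. The scripts were tested on simulated counts. Lengths and positions came from GENCODE vM21, another release of the same build. At these depths 3 counts equal 0.0239 to 0.0554 CPM. Intervals and floors cover counting and library spread only. The p-values measure the spread between libraries of 3 passages, and not that between independently made clones.

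Alternatives were limma-voom 3.58.1, DESeq2 1.42.0, other scalings and filters, other lengths, and leaving out each library. Members and gene lists were chosen with earlier results of these data known. Besides the members and *Vcam1*, named genes were up to 4 per pathway list with the largest change over both clones among those past the threshold, at a mean of at least 5 CPM and without overlap. All relatives and neighbours, and the 3 genes most like each member, were also named. Exceptions are stated. Some genes of the lists are not reported here.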

Additional observations from a re-analysis of the deposited data

Results flagged for a closer look

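Among the 6 knockout libraries, 4 of 31 genes had a library far from the rest by Dixon's 95% criterion. In groups of like libraries, chance meets it in about 1 of 20. The 6 libraries come from both clones, so that rate need not hold here. *Pdgfra* was highest at 182 CPM and *Pdgfc* lowest at 29.4 CPM, both in KO1 replicate 3, the library with the low proliferation genes. *Kit* (0.0299 CPM) and *Kdr* (0.135 CPM), neighbours of *Pdgfra*, were highest in KO1 replicate 1, from 2 and 9 counts.

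The clones differed in 16 of 28 named genes by edgeR at an adjusted p under 0.05, where 38.7% of all tested genes passed. Some of the named genes were picked for a large change over both clones in these data. Given as log2 KO1 over KO2, the PDGF genes were *Pdgfa* at -1.17, *Pdgfb* at -4.23, *Pdgfd* at 1.81 and *Pdgfrb* at 0.77. *Pdgfrl* was at 2.47, *Grb7* at -2.94, *Grb10* at 9.04 (a fitted value against at most 2 counts in KO2; at least 193-fold against the floor), *Plcg2* at -0.84 and *Shb* at -1.12. *Hbegf* was at -1.65 and *Myc* at -1.63. Of the genes named as relatives or neighbours, *Kitl* was at -0.94, *Csf1r* at 1.33, *Csf1* at -0.92, *Lnx1* at 1.71 and *Chic2* at -0.61. When single libraries were left out, the edgeR adjusted p reached 0.14 for *Csf1r*, 0.13 for *Chic2*, 0.12 for *Csf1* and 0.073 for *Lnx1*. These calls, like those of *Pdgfd* and *Pdgfrb*, were thus not kept in every fit.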

How the results depend on the processing

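Of 384 values of the PDGF genes under alternatives, 367 kept their direction and side of the threshold, 9 lost and 6 gained a call, and 2 reversed; the cause was not tested. Over both clones, 2 PDGF genes were called lower with limma-voom and 2 with the mean of the clone contrasts, and 0 to 1 when single libraries were left out. Those fits gave 1 to 3 lower in KO1 against ctrl, 3 to 4 higher in KO2 against ctrl and 0 to 2 higher in KO1 against KO2. Genes called then ranged from 5583 to 7913 over both clones, 9518 to 10867 in KO1, 7741 to 10203 in KO2 and 4943 to 7408 between clones. With upper-quartile scaling 58.5% of the genes called between the clones were higher in KO1, against 52.2%, and the median log2 difference over all tested genes was 0.106. No paired analysis was possible because the labels number the libraries serially and give no replicate numbers shared between groups.

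Lengths moved the levels per kb. With the longest coding transcript and with the union of exons, means over the 9 libraries were 22.2 and 15.5 CPM per kb for *Pdgfa*, 18.2 and 17.6 for *Pdgfb*, and 10.1 and 7.23 for *Pdgfra*. Ligand shares in ctrl were then 27.3 and 21.3% for *Pdgfa*, 54.8 and 58.7% for *Pdgfb*, 15.1 and 16.8% for *Pdgfc*, and 2.84 and 3.13% for *Pdgfd*. In KO1 they were 45.8% (union) for *Pdgfa*, 3.39 and 3.88% for *Pdgfb*, 40.2 and 47.9% for *Pdgfc*, and 2.06 and 2.45% for *Pdgfd*. In KO2 they were 52.1 and 43.8% for *Pdgfa*, 26.8 and 30.9% for *Pdgfb*, 20.9 and 25.1% for *Pdgfc*, and 0.244 and 0.290% for *Pdgfd*.

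Reversals concerned log2 differences that passed neither in the main fit nor once reversed. Some ranges below do include values that passed. The lowest edgeR adjusted p was 0.017 for *Dusp6* between clones and 0.045 for *Gclm* in KO1 against ctrl. When single libraries were left out, *Pdgfc* in KO1 ranged from -0.087 to 0.28, the lowest without ctrl replicate 2. Over both clones *Fip1l1* ranged from -0.17 to 0.022 and *Ephx1* from -0.019 to 0.61. In KO1 against ctrl *Gclm* ranged from -0.0015 to 0.53, *Ephx1* from -0.23 to 0.42 and *Bicc1* from -0.015 to 0.51. In KO2 against ctrl *Fip1l1* ranged from -0.030 to 0.15 and *Chic2* from -0.26 to 0.078. Between clones *Dusp6* ranged from -0.73 to 0.15, *Vcam1* from -0.071 to 0.18, *Bicc1* from -0.27 to 0.0051 and *Ier3* from -1.06 to 0.083. Upper-quartile factors turned *Fip1l1* in KO2 to -0.022 and *Dusp6* between clones to 9.7e-05.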

Other observations

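The other receptors of the PDGF receptor's structural class, known as type III receptor tyrosine kinases, were low. *Csf1r*, the receptor of macrophage colony-stimulating factor, was at 6.43, 3.54 and 12.5 CPM in ctrl and at 0.424 to 1.53 CPM in the clones (log2 fold change over both clones -3.06, adjusted p = 0.0013, edgeR). *Kit* and *Flt3* were too low to be tested, with at most 14 and 29 counts in any library. Their ligands were present. *Kitl*, the ligand of KIT, was at 53.2, 54.6 and 57.9 CPM in ctrl, 102, 105 and 103 CPM in KO1, and 222, 194 and 177 CPM in KO2 (1.44, adjusted p = 0.004). *Csf1* rose by 1.91 (adjusted p = 0.0051), and *Flt3l* gave -0.61 (adjusted p = 0.062).

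Genes around *Pdgfra* on chromosome 5 were also read. Of 6 neighbours within 735 kb, 3 were tested over both clones and 0 passed by edgeR, with 1 at an unadjusted p under 0.05. Of all tested genes, 43% passed there. *Chic2*, 107.5 kb away, gave -0.38 (adjusted p = 0.25) and *Fip1l1*, 553 kb away, -0.08 (adjusted p = 0.7). *Lnx1*, at 0.129 to 1.79 CPM, gave 1.64 (adjusted p = 0.079) and passed with DESeq2 (1.60, adjusted p = 0.041). In KO1 against ctrl 2 of the 3 passed, *Lnx1* as higher (2.23, adjusted p = 0.0032) and *Chic2* as lower (-0.71, adjusted p = 0.016), where 59.9% of all genes passed. The call of *Chic2* in KO1 was not kept in every edgeR fit that left out a library (adjusted p up to 0.057). In KO2 against ctrl *Lnx1* gave 0.52 (adjusted p = 0.41), *Chic2* -0.10 (adjusted p = 0.71) and *Fip1l1* 0.05 (adjusted p = 0.81). *Gsx2* had 0 counts in every library.

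For each member, the genes with the most similar pattern were sought by Pearson's r of log2 CPM over the 9 libraries, among 10876 or 10877 genes with a mean of at least 5 CPM. The points are 3 libraries of each of 3 groups, so r is a description only. *Chst3* (r = 0.999), *Cacna1c* (0.998) and *Gm26782* (0.997) were most like *Pdgfrb*, and *Cacng7* (0.99), *Fbln7* (0.989) and *Abtb2* (0.983) most like *Pdgfra*. *Rbpj-ps3* (0.997), a pseudogene whose reads could be split with its parent gene, *Hebp1* (0.997) and *Enpp2* (0.995) were most like *Pdgfb*. *Cyp2j6* (0.988), *Cryab* (0.98) and *Myo6* (0.98) were nearest to *Pdgfd*, *Ogfr* (0.985), *Tshz1* (0.981) and *Nkd1* (0.98) to *Pdgfa*, and *Gclm* (0.963), *Ephx1* (0.957) and *Bicc1* (0.946) to *Pdgfc*. An r above 0.95 was reached by 616 genes for *Pdgfrb* but by 2 for *Pdgfc*.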
